A study of Mus musculus with 6 samples.

Results

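The glucocorticoid receptor gene Nr3c1 and 9 genes that glucocorticoids induce in many tissues were followed across 6 tumour transcriptomes. The 9 are Fkbp5, Tsc22d3, Klf9, Klf15, Zbtb16, Sgk1, Errfi1, Cebpd and Pdk4. All 10 were chosen by gene name, and each matched 1 of the 19288 rows of the deposited count table. The tumours were grown from LLC1 cells, the established Lewis lung carcinoma line, placed under the skin of mice carrying a beta-hCG transgene. The hosts of all 3 groups were outcrosses of C57BL/6 females (written CB57BL/6 in the labels) with transgenic FVB males, so no group lacks the transgene. In the first group (transgenic tumours) the labels name no surgery and no supplement. The hosts of the second group were ovariectomized and given vehicle (vehicle tumours), and those of the third were ovariectomized and given progesterone (progesterone tumours), in both for 28 days. Tumours of all groups were taken 30 days after implantation, and each group has 2 libraries. The labels give neither the age of the hosts, the promoter that drives the transgene, the dose of progesterone nor whether the 2 libraries of a group came from separate animals. The p-values therefore measure the spread between these libraries.

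Without its hormone, the glucocorticoid receptor waits in the cytoplasm in a complex with the chaperone HSP90 and co-chaperones. Hormone binding sends it to the nucleus, where it binds DNA as a dimer at an element of mirrored arms, or works through other bound factors, to induce some genes and to repress many inflammatory ones. Progesterone, best known as the ligand of its own receptor, can also bind the glucocorticoid receptor, where it acts as a weak or partial ligand. Adrenal glucocorticoids, which ovariectomy does not remove, are the receptor's main ligands in mice. Fkbp5 and Tsc22d3 are among its most widely used readouts.

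The element recognised by the receptor dimer is shown first, because 1 of the 10 genes carries it just upstream of an annotated start. Sequences are from RefSeq, build GRCm38.p6, and windows ran from 250 bases before to 50 bases after each gene's start, 300 bases in all. Windows were found for 7 of the 10 genes, 15 windows in total. Both strands were searched for the full element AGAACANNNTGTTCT, for its shorter core GNACANNNTGTNC, which lies inside it, and for the single arm AGAACA, which is also part of the full element. The full element was in 3 of 32851 windows (0.00913%), of the genes Sgk1, Acnat2 and Gm35041. The core was in 156 windows (0.475%) and the single arm in 6233 (19%). Among the 7 genes, Sgk1 had a match to all 3 motifs, and Tsc22d3 had the single arm, 185 bases before its start. The 250 bases before the Sgk1 start at position 21993890 (plus strand) are given below with the full element in capitals, followed by the same stretch for Klf9, the 1 of the 10 genes with the smallest p-value between groups. The Klf9 stretch holds none of the 3 motifs, which says only that these letters are not in this window.
Sgk1, chr10:21993640-21993889, plus strand: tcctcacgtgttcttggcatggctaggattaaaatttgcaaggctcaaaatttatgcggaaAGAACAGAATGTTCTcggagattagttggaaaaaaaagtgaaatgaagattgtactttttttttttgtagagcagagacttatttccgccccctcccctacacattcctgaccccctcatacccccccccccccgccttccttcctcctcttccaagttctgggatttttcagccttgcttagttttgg
Klf9, chr19:23140976-23141225, plus strand: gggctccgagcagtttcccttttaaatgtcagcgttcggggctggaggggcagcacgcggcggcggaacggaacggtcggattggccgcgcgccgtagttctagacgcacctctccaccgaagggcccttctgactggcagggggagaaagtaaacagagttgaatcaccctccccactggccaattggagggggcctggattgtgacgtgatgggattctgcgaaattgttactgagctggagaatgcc

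The Sgk1 match lies at chr10:21993701-21993715. Its first base is 189 bases before that start. Sgk1 has 6 RefSeq starts, and the match is upstream of 2 of them. It overlaps no annotated exon and falls inside the span of 5 of 13 annotated transcripts. The core was also searched in a list of other genes known to be induced by glucocorticoids, of which 24 had windows and 4 had a match (Map3k6, Mt1, Slc10a6 and Trim63). Across all genes with windows the share was 0.537%. The 5 core matches are set side by side, each with 8 bases on either side and the core in capitals, to show how they differ at the free positions.
Sgk1, chr10:21993694-21993722, plus strand: tgcggaaaGAACAGAATGTTCtcggagat
Map3k6, chr4:133240629-133240657, plus strand: gaatagggGCACAGGCTGTTCcggaagtg
Mt1, chr8:94178987-94179015, plus strand: cactatagGGACATGATGTTCcacacgtc
Slc10a6, chr5:103629546-103629574, minus strand: cttccctaGAACACGATGTGCcactgtcg
Trim63, chr4:134314904-134314932, plus strand: ctggctctGAACAGTCTGTTCttgtttac

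The 5 genes ranged widely in level, given as TMM-scaled counts-per-million (CPM) values. Sgk1, Map3k6 and Mt1 were each at 17.6 CPM or more in every library, Slc10a6 was at 0.053 to 3.43 CPM, and Trim63 had 0 to 3 counts per library. Whether the receptor binds at these matches in these tumours was not tested.

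Library totals ran from 19526775 to 30083925 counts. Libraries of 1 group differed from each other by far more than counting error (chi-square over degrees of freedom of 40.5 to 101), and the second transgenic and the second progesterone library stood apart from the rest on the first and the second principal component (31.5% and 27.4% of the variance). The libraries hold RNA of tumour cells and of host cells, so fewer cells of a type and less RNA per cell cannot be told apart. Summed keratin and epithelial markers were at 263 and 763 CPM in transgenic, 393 and 467 in vehicle and 630 and 576 in progesterone tumours, nearly all of it Krt8 and Krt18. Fibroblast markers summed to 1918 to 11726 CPM and macrophage markers to 1067 to 2605 CPM. Adipocyte markers, a cell type rich in several of these genes, summed to 9.26 to 33.6 CPM. Most of this was Fabp4, at 6.35 to 29.6 CPM, and only 2 of the 7 markers had enough counts to be tested. Skeletal muscle markers summed to 5.30 to 16.5 CPM. Endothelial markers summed to 102 to 277 CPM, T and NK cell markers to 2.61 to 19.6 CPM and B and plasma cell markers to 0.480 to 4.92 CPM. Mast cell markers were at 3.93 to 13.7 CPM in the transgenic and vehicle libraries and at 71.7 and 168 CPM in the progesterone libraries. No marker was at 0 in all 6 libraries.

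Between progesterone and vehicle tumours, none of the 10 followed genes passed the test, and the 2 with the smallest p-values among them were both lower with progesterone. Klf9, a Krüppel-like transcription factor induced directly by the receptor, was at 59.8% of its vehicle mean, and Errfi1, a feedback inhibitor of the EGF receptor, at 50.3%. Fkbp5, the co-chaperone that closes the receptor's own feedback loop, was at 165 ± 10.8 CPM against 171 ± 13.0 (SD, n = 2 libraries each). Tsc22d3, which encodes the anti-inflammatory protein GILZ, was higher in both progesterone libraries. The receptor itself was slightly lower in both.

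**Figure D1:**
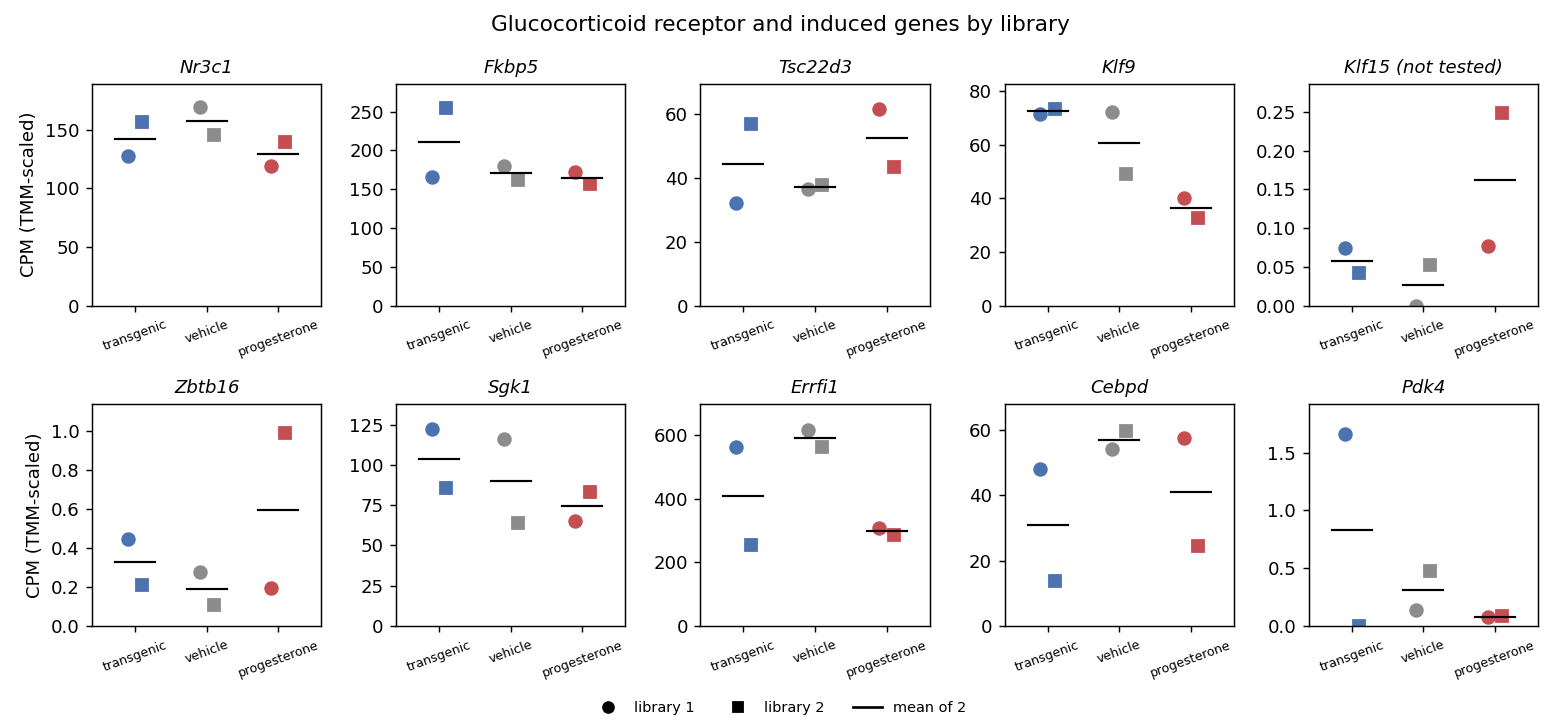
TMM-scaled counts-per-million (CPM, vertical axis, starting at 0, 1 scale per gene) values of the receptor and the 9 induced genes in each library, with circles for library 1, squares for library 2 and horizontal lines for group means. Both progesterone libraries sit below the other 4 for Klf9, whereas Fkbp5 is level apart from the second transgenic library at 255 CPM.

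Nr3c1 (ENSMUSG00000024431, GRCm38 chr18:39410545-39519421, minus strand), which encodes the receptor, was at 128 and 157 CPM in transgenic, 170 and 146 in vehicle and 119 and 140 in progesterone tumours.  Both progesterone libraries were below both vehicle libraries, while the transgenic libraries overlapped both groups. The log2 fold change of progesterone over vehicle was -0.29 ± 0.18 (SE; 95% interval -0.71 to 0.13; edgeR, adjusted p = 0.999). That of vehicle over transgenic was 0.15 ± 0.18 (adjusted p = 0.969), and that of progesterone over transgenic -0.14 ± 0.18 (adjusted p = 0.994). Nr3c1 was the steadiest of the 10 genes, with a highest library 1.43 times its lowest.

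Fkbp5 (ENSMUSG00000024222, chr17:28399094-28517527, minus strand) binds the HSP90 complex and lowers the receptor's affinity for hormone. It was at 166 and 255 CPM in transgenic, 180 and 162 in vehicle and 172 and 157 in progesterone tumours. A single library, the second transgenic one, was high, and all 3 groups overlapped. Progesterone over vehicle gave a log2 fold change of -0.06 ± 0.22 (95% interval -0.58 to 0.47; edgeR, adjusted p = 0.999), which became 0.028 with libraries scaled by total counts only. Vehicle over transgenic gave -0.30 ± 0.22 (adjusted p = 0.935), and 0.049 without the second transgenic library.

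Tsc22d3 (ENSMUSG00000031431, chrX:140539528-140600659, minus strand) was at 31.9 and 56.7 CPM in transgenic, 36.6 and 37.6 in vehicle and 61.6 and 43.3 in progesterone tumours. Both progesterone libraries were above both vehicle libraries, and the transgenic libraries spanned nearly the whole range. The log2 fold change of progesterone over vehicle was 0.50 ± 0.30 (95% interval -0.21 to 1.21; edgeR, adjusted p = 0.986), against -0.26 ± 0.30 for vehicle over transgenic (adjusted p = 0.969) and 0.24 ± 0.30 for progesterone over transgenic (adjusted p = 0.991). The last 2 estimates changed sign when single libraries were left out, to 0.22 without the second transgenic library and to -0.11 without the first.

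Klf9 (ENSMUSG00000033863, chr19:23141226-23168134, plus strand) was at 71.5 and 73.2 CPM in transgenic, 72 and 49.1 in vehicle and 39.9 and 32.6 in progesterone tumours. Both progesterone libraries were below all 4 others, an arrangement found in 872 of the 13632 genes tested (6.4%). Progesterone over vehicle gave a log2 fold change of -0.74 ± 0.22 (95% interval -1.27 to -0.22; edgeR, adjusted p = 0.932). It was -0.44 without the first vehicle library and -0.99 without the second. Progesterone over transgenic gave -1.0 ± 0.22 (95% interval -1.53 to -0.47; adjusted p = 0.914), which ranked 30 of 13632 by p-value. DESeq2 gave an adjusted p of 0.0497 for that comparison and 0.253 for progesterone over vehicle. Vehicle over transgenic was -0.26 ± 0.22 (edgeR, adjusted p = 0.940), with overlapping groups.

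Sgk1 (ENSMUSG00000019970, chr10:21882184-21999903, plus strand) encodes a kinase that carries glucocorticoid and mineralocorticoid signals to ion transport and survival pathways, and is the gene with the full element shown above. It was at 123 and 85.6 CPM in transgenic, 116 and 63.8 in vehicle and 65.5 and 83.5 in progesterone tumours. The vehicle libraries spanned the progesterone libraries, and both progesterone libraries were below both transgenic ones. The log2 fold change was -0.28 ± 0.31 for progesterone over vehicle (95% interval -1.01 to 0.46; edgeR, adjusted p = 0.999) and turned to 0.22 without the first vehicle library. Progesterone over transgenic gave -0.48 ± 0.31 (adjusted p = 0.940).

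Errfi1 (ENSMUSG00000028967, chr4:150853919-150868892, plus strand) was at 562 and 254 CPM in transgenic, 618 and 565 in vehicle and 310 and 286 in progesterone tumours. Both vehicle libraries were high and both progesterone libraries low, and the transgenic libraries fell on either side. Progesterone over vehicle gave a log2 fold change of -0.99 ± 0.34 (95% interval -1.80 to -0.18; edgeR, adjusted p = 0.935). Vehicle over transgenic gave 0.54 ± 0.34 (adjusted p = 0.916), but 1.22 without the first transgenic library and 0.08 without the second.

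Cebpd (ENSMUSG00000071637, chr16:15887286-15891031, plus strand), a transcription factor that both glucocorticoids and inflammatory signals induce, was at 48.0 and 13.8 CPM in transgenic, 54.4 and 59.6 in vehicle and 57.6 and 24.4 in progesterone tumours. The 2 low libraries were the second of the transgenic and the second of the progesterone group, and the highest library was 4.33 times the lowest. The log2 fold change was -0.47 ± 0.59 for progesterone over vehicle (edgeR, adjusted p = 0.999) and 0.88 ± 0.59 for vehicle over transgenic (adjusted p = 0.926). Cebpd overlaps Spidr on the opposite strand. Whether counting used the strand is not given in the sources used here. Spidr was at 43.8 to 56.2 CPM, and its part in the Cebpd counts was not tested.

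Klf15, Zbtb16 and Pdk4 were close to the limit of detection. These genes mark glucocorticoid action in muscle, fat, liver and endometrial stroma: Klf15 drives amino acid breakdown, Zbtb16 is a zinc finger repressor also induced by progesterone in endometrial stroma, and Pdk4 restrains glucose oxidation. Klf15 (ENSMUSG00000030087, chr6:90462576-90475238, plus strand) had 2 and 1 counts in transgenic, 0 and 1 in vehicle and 2 and 6 in progesterone tumours, and did not pass the filter on low counts. No fold is given for it, since a count of 0 allows up to 3 counts. Zbtb16 (ENSMUSG00000066687, chr9:48654297-48836222, minus strand) had 12 and 5, 8 and 2, and 5 and 24 counts in the same order, with overlapping groups. Its log2 fold change of progesterone over vehicle, 1.56 ± 1.03 (edgeR, adjusted p = 0.999), rested on the second progesterone library and was -0.031 without it. Pdk4 (ENSMUSG00000019577, chr6:5483351-5496309, minus strand) had 45 and 0, 4 and 9, and 2 and 2 counts, so a single transgenic library held most of its reads. Pdk4 passed the filter on low counts through that library and the second vehicle one. Its log2 fold change was -1.82 ± 1.82 for progesterone over vehicle (adjusted p = 0.999) and -3.31 ± 1.75 for progesterone over transgenic (adjusted p = 0.914), the latter turning to 4.05 without the first transgenic library. The second progesterone library, highest for Zbtb16 and Klf15, also had the most adipocyte marker counts, 10 for Adipoq against 0 to 4 in the other libraries. The part of fat cells in these values was not tested.

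In all, 9 of the 10 genes could be tested in the 3 comparisons, and 0 were called by edgeR at an adjusted p under 0.05, beside a background of 0% of the 13632 genes tested in each comparison. Zbtb16 and Pdk4, with few counts, are left out of the counts that follow, which cover the 7 genes with a mean of at least 1 CPM over the 6 libraries. In progesterone against vehicle tumours, 1 of the 7 had a higher and 6 a lower estimate, beside 48.9% lower of all genes tested. The median log2 fold change was -0.29 against 0.01 over all genes tested. Among the 6, Fkbp5 changed side with total-count scaling, and Fkbp5, Sgk1 and Cebpd each changed side when 1 library was left out. At an unadjusted p under 0.05 there were 2, Klf9 and Errfi1, both lower. Across all genes that threshold was met by 5.29%, 2.52% lower and 2.77% higher. The groups did not overlap for 3 genes that were lower (Nr3c1, Klf9 and Errfi1) and for 1 that was higher (Tsc22d3), beside 17.8% and 18.5% of all genes. DESeq2 called none of the 7, beside 0.579% of the genes for which it gave an adjusted p.

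For vehicle against transgenic tumours 3 of the 7 estimates were higher and 4 lower, with a median of -0.21 against -0.01 over all genes. None reached an unadjusted p under 0.05 by edgeR, beside 5.57% of all genes (2.89% lower, 2.68% higher), and DESeq2 called none of them, beside 0.517%. Errfi1 and Cebpd were higher in both vehicle libraries than in both transgenic ones and no gene was lower in both, beside 17.9% and 17.7% of all genes. In progesterone against transgenic tumours 2 estimates were higher and 5 lower, with a median of -0.35 against 0.01. Klf9 alone had an unadjusted p under 0.05, beside 5.27% of all genes (2.54% lower, 2.73% higher). It was also the only one of the 7 that DESeq2 called, beside 0.282% of the genes for which it gave an adjusted p. Klf9 and Sgk1 were lower in both progesterone libraries than in both transgenic ones, and none was higher, beside 14.5% of all genes in each direction. Any pair of these comparisons shares a group of libraries, so their values are not independent.

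**Figure D2:**
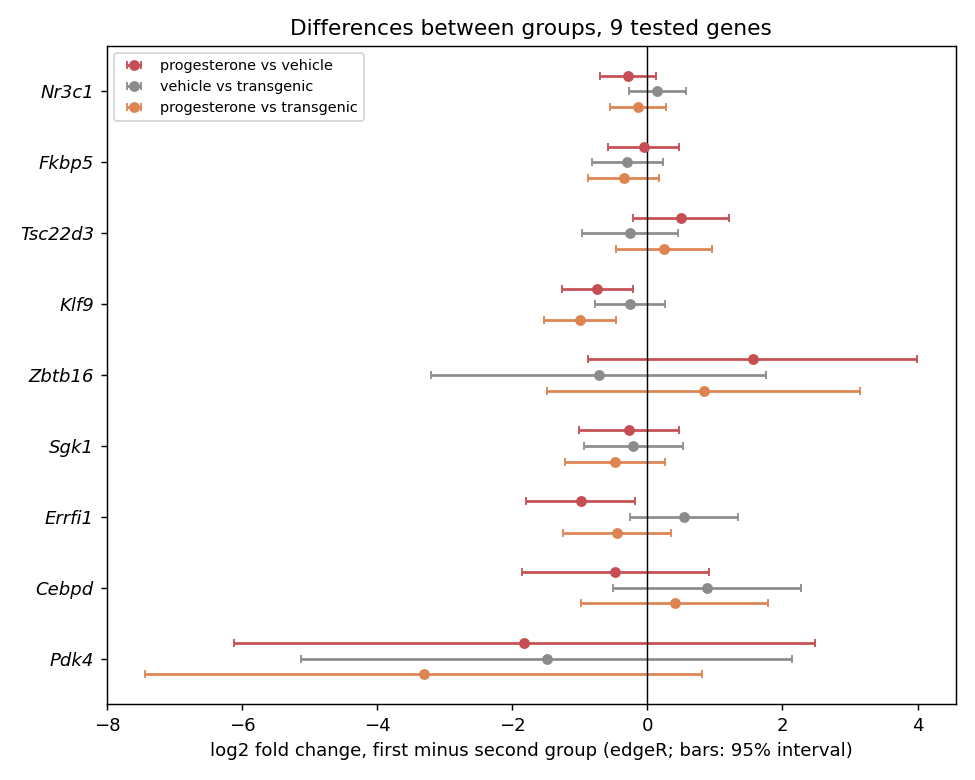
Log2 fold changes (horizontal axis) of the 9 tested genes in the 3 comparisons, with bars for the 95% interval of edgeR's estimate. The intervals of Klf9 and Errfi1 for progesterone over vehicle end below 0, at -0.22 and -0.18, before any adjustment for the number of genes, and those of Pdk4 and Zbtb16 are the widest.

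Per kilobase of exon, which allows genes to be compared with each other, Errfi1 had the highest level, with a mean of 121 CPM per kb over the 6 libraries (range 70.8 to 172). Fkbp5 (19.2, range 16.6 to 26.9), Nr3c1 (18.6, range 15.5 to 22.1) and Sgk1 (18.3, range 13.0 to 25.0) followed and did not differ beyond their spread. Klf9 (11.7, range 6.76 to 15.2), Cebpd (11.5, range 3.68 to 15.9) and Tsc22d3 (10.3, range 7.36 to 14.2) had lower means. Their ranges overlapped each other and that of Sgk1. Pdk4 (0.116), Zbtb16 (0.0701) and Klf15 (0.0295) were lower than all of these in every library.

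**Figure D3:**
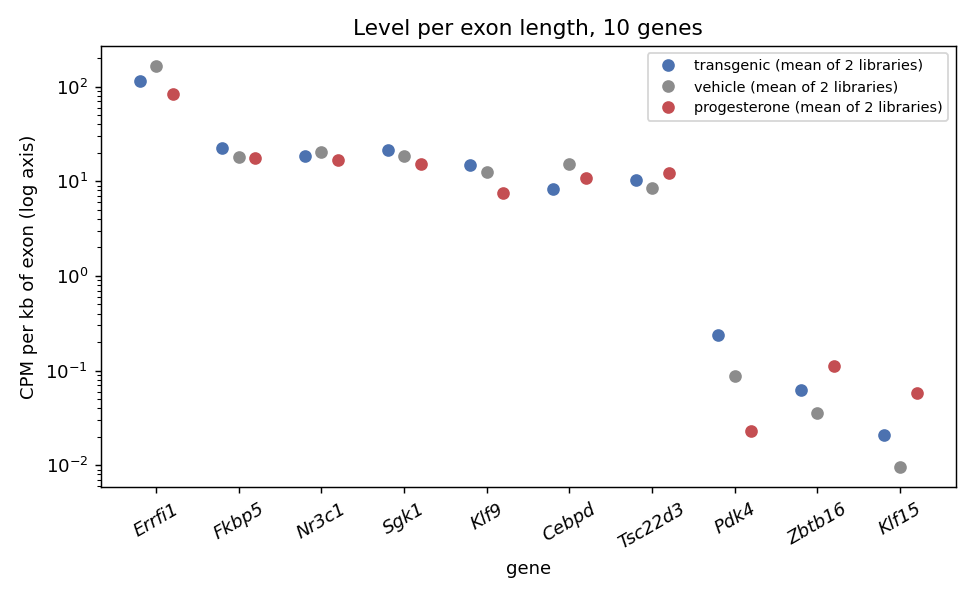
Level of each of the 10 genes in CPM per kilobase of exon (log axis, genes in order of their mean), with a point for each group mean of 2 libraries, coloured by group. Of the 10, 7 genes have group means between 7.53 (Klf9, progesterone) and 165 CPM per kb (Errfi1, vehicle). Those of Pdk4, Zbtb16 and Klf15 stay at 0.237 or less.

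Transcripts of the progesterone and mineralocorticoid receptors were scarce. Pgr, the progesterone receptor, had 3 and 0 counts in transgenic, 2 and 0 in vehicle and 0 and 0 in progesterone tumours. Nr3c2, the mineralocorticoid receptor, which shares hormones and DNA elements with the glucocorticoid receptor, was at 0.193 to 0.786 CPM. Nr3c1 was thus above 100 CPM in every library and Nr3c2 and Pgr below 1, although these values are not set per length. Among the oestrogen receptors, Esr1 was at 3.16 to 23.6 CPM with overlap between all groups, and Esr2 at 1.2 to 2.32 CPM. For progesterone over vehicle Esr2 gave a log2 fold change of 0.78 ± 0.49 (edgeR, adjusted p = 0.999). Nr3c2, Esr1 and Esr2 could be tested and none was called.

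The chaperones that fold the receptor and hold it ready for hormone summed to 8277 to 10304 CPM per library, with 13 of 13 tested and none called. For progesterone over vehicle 6 estimates were higher and 7 lower, with a median of -0.02. Dnajb1, the heat-inducible HSP40 that hands clients to HSP70, was at 81.9 and 102 CPM in transgenic, 112 and 133 in vehicle and 83.5 and 69.4 in progesterone tumours. Both vehicle libraries were above both progesterone and both transgenic libraries, separations that taken singly were found in 17.8% and 17.9% of all genes. Progesterone over vehicle gave -0.68 ± 0.18 (edgeR, adjusted p = 0.932). Ppp5c, a phosphatase of the receptor complex, gave 0.26 ± 0.19 (adjusted p = 0.999). Fkbp4, the co-chaperone that competes with Fkbp5 for the complex and favours hormone binding, was at 227 to 331 CPM and gave 0.21 ± 0.17 (adjusted p = 0.999). All 11 coregulators were tested and none was called, with 3 estimates higher, 8 lower and a median of -0.06. Carm1, an arginine methyltransferase coactivator, gave -0.20 ± 0.15 and Ncoa2, a p160 coactivator of the receptor, gave -0.14 ± 0.15 (adjusted p = 0.999 for both).

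Genes that set how much hormone reaches the receptor were counted next. Of 12 listed, 9 were in the table and 8 were tested, with 5 estimates higher and 3 lower for progesterone over vehicle and none called. Abcb1b, an efflux pump that exports glucocorticoids, was at 64.8 and 75.0 CPM in transgenic, 30.8 and 47.2 in vehicle and 61.0 and 55.0 in progesterone tumours. Both vehicle libraries were below both progesterone and both transgenic libraries, separations that taken singly were found in 18.5% and 17.7% of all genes. Progesterone over vehicle gave a log2 fold change of 0.57 ± 0.23 (edgeR, adjusted p = 0.939), and vehicle over transgenic -0.84 ± 0.23 (adjusted p = 0.81). Hsd11b1, which regenerates active glucocorticoid from its inert form, was at 1.52 and 1.22, 0.892 and 1.64, and 1.08 and 5.30 CPM, with 1 high library in the progesterone group. Its counterpart Hsd11b2, which inactivates the hormone, had 3 to 19 counts per library.

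A wider list of 29 genes known to be induced by glucocorticoids had 28 in the table and 25 tested, with none called in any comparison. For progesterone over vehicle, 11 estimates were higher and 14 lower, with a median of -0.02 against 0.01 over all genes. An unadjusted p under 0.05 was reached by 3, Cd163, Slc10a6 and Arrdc2, all higher, or 3 of 25 beside 2.77% of all genes higher at that threshold. Cd163, the scavenger receptor of glucocorticoid-exposed macrophages, was at 1.41 and 8.18 CPM in transgenic, 3.57 and 0.848 in vehicle and 4.29 and 126 in progesterone tumours. Nearly all of the difference lay in 1 progesterone library, and its log2 fold change was 4.84 ± 1.60 (edgeR, adjusted p = 0.935). Slc10a6, a steroid sulphate transporter and 1 of the genes with a core match, was at 0.482 and 1.14, 0.858 and 0.053, and 1.89 and 3.43 CPM. Both progesterone libraries were above both vehicle and both transgenic libraries, separations that taken singly were found in 18.5% and 14.5% of all genes. Progesterone over vehicle gave 2.47 ± 1.04 (adjusted p = 0.939). Arrdc2, an arrestin family member, was at 1.11 and 1.31, 0.206 and 0.265, and 2.12 and 0.703 CPM, a change of 2.58 ± 0.77 (adjusted p = 0.932). Its mean over all libraries was 0.953 CPM. The vehicle libraries held few counts, 25 and 1 for Slc10a6 and 6 and 5 for Arrdc2, so both fold changes are uncertain. Macrophage markers summed to 2605 and 2255 CPM in progesterone and 1333 and 1649 in vehicle tumours, and the transgenic libraries were at 1067 and 2385. All 7 of that list were higher in both progesterone than in both vehicle libraries, beside 18.5% of all genes. The part of macrophages in the Cd163 values was not tested.

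Levels of several induced genes varied as much within a group as between groups. Per1, a clock gene with a receptor element in its promoter region, was at 52.7 and 128 CPM in transgenic, 75.6 and 67.2 in vehicle and 153 and 75.3 in progesterone tumours. Its high libraries, the second transgenic and the first progesterone one, were also the 2 highest for Tsc22d3, at 56.7 and 61.6 CPM. Map3k6, another gene with a core match, had the same 2 on top at 42.2 and 33.7 CPM, against 17.6 to 27.0 in the rest. These 2 genes were singled out after their values were seen. Other induced genes went the other way in the second transgenic library. Among 22 of the wider list with a mean of at least 1 CPM, 11 (50%) had their lowest value there, beside 22.1% of all tested genes at that level, as did Errfi1 and Cebpd. The metallothionein gene Mt1 was at 259 and 87.9 CPM in transgenic, 249 and 352 in vehicle and 154 and 157 in progesterone tumours.

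**Figure D4:**
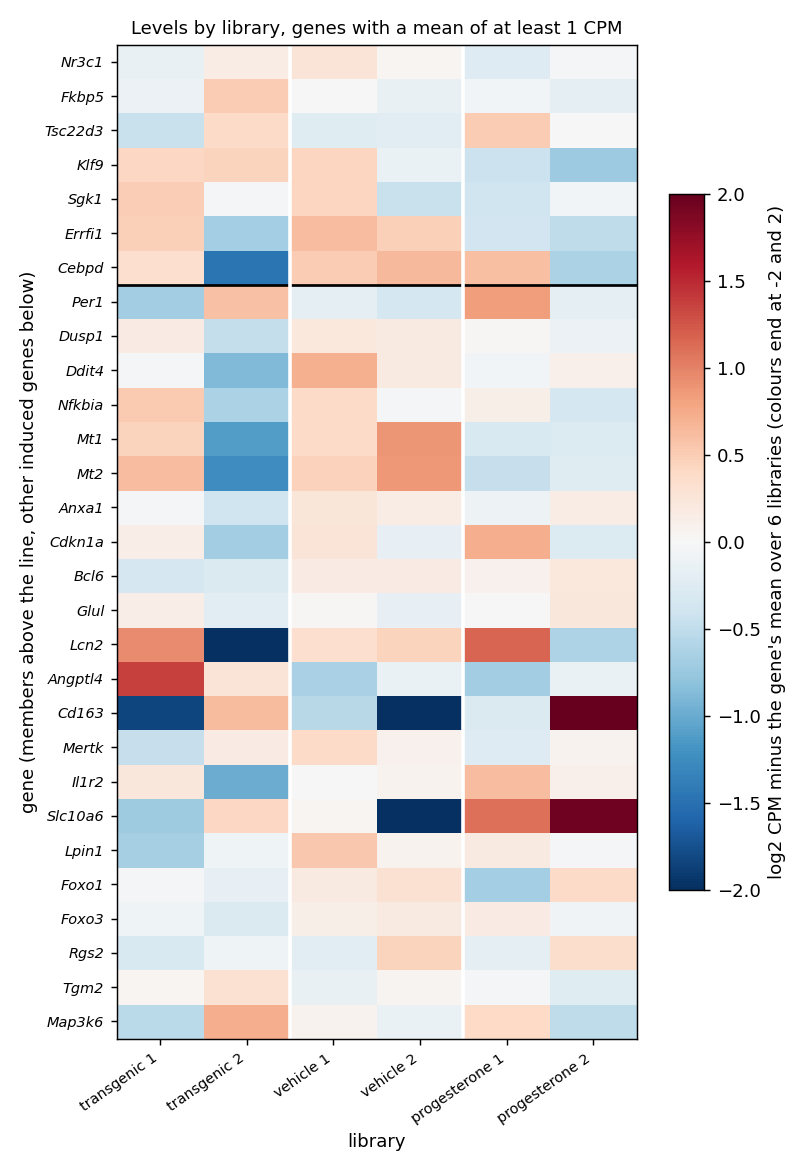
Level of each induced gene with a mean of at least 1 CPM, as log2 CPM minus the gene's own mean over the 6 libraries (colour scale ending at -2 and 2), with libraries as columns and the receptor and 6 of the followed genes above the line. The second transgenic library is lowest for 11 of the 22 genes below the line. Above the line it is highest for Fkbp5 and, by little, for Klf9, and lowest for Errfi1 and Cebpd.

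Inflammatory genes that glucocorticoids repress, such as cytokines, chemokines and their enzymes, summed to 2003 and 470 CPM in transgenic, 1959 and 1221 in vehicle and 1007 and 638 in progesterone tumours. By these sums both progesterone libraries were below both vehicle libraries, and the lowest library of all was a transgenic one. Ccl2, Ptgs2 and Cxcl1 weighed most, with means of 371, 309 and 144 CPM over the 6 libraries. Gene by gene, 3 of the 14 had both progesterone libraries below both vehicle libraries, beside 17.8% of all genes. Another 2 had both above, beside 18.5%. All 14 were tested and none was called. For progesterone over vehicle 11 estimates were lower and 3 higher, with a median of -0.80, and for vehicle over transgenic 7 were lower and 7 higher, with a median of 0.00. Mmp13, a collagenase, was at 45.7 and 15.0, 29.7 and 98.7, and 13.4 and 15.8 CPM, a log2 fold change of -2.13 ± 0.66 for progesterone over vehicle (edgeR, adjusted p = 0.932). Icam1, the leukocyte adhesion molecule, went the other way at 8.85 and 12.9, 7.14 and 7.42, and 13.8 and 13.1 CPM, a change of 0.89 ± 0.30 (adjusted p = 0.935). Neutrophil markers, from cells rich in such genes, summed to 213 and 48.5, 159 and 167, and 156 and 107 CPM, lowest in the same transgenic library. Their part in these sums was not tested.

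Several of the followed genes also answer to stress and growth signals, so lists of those genes were set beside them. The lists were chosen with earlier results of these data known, so their shares beside the background are not an independent result. All 11 immediate early and heat shock genes tested had lower estimates for progesterone over vehicle, with a median of -1.42, and 9 had an unadjusted p under 0.05, beside 2.52% of all genes lower at that threshold. Egr1, a growth-signal transcription factor, was at 42.2 and 25.5, 53.9 and 55.1, and 18.0 and 18.0 CPM, a log2 fold change of -1.60 ± 0.26 (edgeR, adjusted p = 0.705). Atf3, a stress-induced factor, gave -1.56 ± 0.28 (adjusted p = 0.817). All 10 hypoxia genes tested also had lower estimates, with a median of -0.93, and 8 had an unadjusted p under 0.05, beside the same 2.52%. The smallest p-values were those of the oxygen sensor Egln3 (-1.23 ± 0.19, adjusted p = 0.693) and the oxidase Ero1l (-1.27 ± 0.27, adjusted p = 0.826). For vehicle over transgenic all 10 hypoxia estimates were higher, with a median of 0.73. Those of the immediate early and heat shock list were 9 higher and 2 lower, with a median of 0.69. For progesterone over transgenic, 4 hypoxia estimates were higher and 6 lower, with a median of -0.05. In the other list 3 were higher and 8 lower, with a median of -0.45. None of these genes was called. Errfi1 and Klf9 were lower for progesterone over vehicle, as these lists were. For vehicle over transgenic Errfi1 gave 0.54 and Klf9 -0.26, and for progesterone over transgenic -0.46 and -1.0. The part of stress or hypoxia signals in their values was not tested.

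Because glucocorticoid levels follow the time of day and Klf9, Per1 and Tsc22d3 cycle in many tissues, genes of the clock loop and its output were also read. Of 10 listed, 8 were tested and none was called, with 3 estimates higher and 5 lower for progesterone over vehicle and a median of -0.10. Arntl, the activator of the clock loop, gave a log2 fold change of -0.54 ± 0.22 (edgeR, adjusted p = 0.939) and Nr1d1, its repressor, -0.36 ± 0.27 (adjusted p = 0.999). The hour at which tumours were taken is not given in the labels. The list mixes the loop's activator with its repressors, so its counts and median do not tell that hour.

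Among 10221 genes with a mean of at least 5 CPM, the patterns most like Nr3c1 over the 6 libraries were those of Sos1, Pdlim1 and Ro60, which differed from it by 0.038, 0.040 and 0.060 on the log2 scale (root mean square after centring each gene). For Fkbp5 they were Elp4, Ubash3b and Sf3b3 (0.030, 0.038 and 0.039), each with its highest level in the second transgenic library. For Tsc22d3 they were Tstd3, Cntrob and Ccdc88b (0.077, 0.078 and 0.085). None of these 9 genes was another of the 10 followed here.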

How the data were processed

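RNA of 6 tumours was sequenced from a directional mRNA library, per the labels' protocols, and the authors deposited unnormalized read counts per gene. HISAT2, HTSeq, DESeq and build GRCm38.p6 are named in the submitters' processing notes. The sources used here give neither tool versions nor the strand setting of the counting. Of 19288 gene IDs, 19284 matched the GENCODE M21 annotation of GRCm38, the source of positions and exon lengths.

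Counts were tested in R 4.3.3 with edgeR 4.0.16: filterByExpr kept 13632 genes, TMM set the scaling, and a quasi-likelihood model (glmQLFit, glmQLFTest) took all 6 libraries together with a mean for each group, leaving 3 residual degrees of freedom. P-values were adjusted over all genes tested (Benjamini-Hochberg), with calls at an adjusted p under 0.05. Standard errors came from the F statistic. DESeq2 1.42.0, limma 3.58.1 (voom), other scalings, no filter, the replicate block and leaving out each library were alternatives. The fit was also run on simulated data for progesterone over vehicle. There it called 25% of 100 genes changed by a log2 fold of 1 and 79% of 100 changed by 2, in either direction. It also called 6 unchanged genes. Changes of about 2-fold were thus mostly missed there. The changed genes were drawn only from those with ample counts, so the shares do not apply to genes with few, such as Zbtb16 and Pdk4. They hold for the simulated spread only: in the real data none of the 5 mast cell markers was called, at a median log2 fold change of 3.77. A count of 0 allows up to 3 counts, 0.103 to 0.159 CPM, for counting error only.

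All 10 genes are named. From each list the 2 with the smallest unadjusted p for progesterone over vehicle and at least 1 CPM are named, the listed steroid receptors are given except 1 that is not reported here, and marker lists are given by their sums. Genes named beyond this rule (Fkbp4, Hsd11b2, Arrdc2, Per1, Map3k6, Mt1, Trim63, Adipoq, Fabp4, Krt8, Krt18, Ccl2, Ptgs2, Cxcl1, Pgr and Spidr) were chosen for their role, their motif or after their values were seen. The genes and lists were chosen with earlier results of these data known.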

Additional observations from a re-analysis of the deposited data

How the results depend on the processing

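Genes called by edgeR numbered 0 in each comparison in the main analysis, with other scalings, with limma-voom, and without each library in turn. Without the filter on low counts the calls numbered 92 for progesterone over vehicle, 12 for vehicle over transgenic and 28 for progesterone over transgenic, and by DESeq2 77, 63 and 47. The only call among the followed genes was Klf9 in progesterone over transgenic by DESeq2. Of 324 estimates for these genes under alternatives, 304 kept their direction and 20 reversed. Other than by leaving out a library, reversals were Fkbp5 for progesterone over vehicle, 0.028 with total counts only, and Pdk4 for vehicle over transgenic, 0.36 with limma-voom. Scaling by total counts only moved the median of all genes to 0.09 for progesterone over vehicle. The causes of these changes were not tested.

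Leaving out each library gave these ranges of log2 fold change where a sign reversed. For progesterone over vehicle, Cebpd ran from -1.23 to 0.016, Fkbp5 from -0.13 to 0.018, Sgk1 from -0.65 to 0.22 and Zbtb16 from -0.031 to 2.41. For vehicle over transgenic, Fkbp5 ran from -0.57 to 0.049, Pdk4 from -2.57 to 5.88, Sgk1 from -0.70 to 0.16 and Tsc22d3 from -0.61 to 0.22. For progesterone over transgenic, Cebpd ran from -0.35 to 1.57, Errfi1 from -0.92 to 0.23, Nr3c1 from -0.28 to 0.012, Pdk4 from -4.30 to 4.05, Tsc22d3 from -0.11 to 0.72 and Zbtb16 from -0.75 to 1.57. A group left with 1 library was assumed to vary like the others.

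The labels number the libraries 1 and 2 in every group without saying that a number marks a shared animal or day. Deviations of same-numbered libraries correlated at 0.08, -0.17 and -0.13 between pairs of groups, so the numbers were not taken as pairs. With the replicate block, edgeR called 0 genes in each comparison. Klf15, Zbtb16 and Pdk4 had too few counts for any statement on direction.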
